A study of Mus musculus with 7 samples.

Results

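The BCL2 family genes examined were Bcl2, Bcl2l1, Mcl1, Bcl2l11, Bak1, Bid, Bik, Bmf, Bad and Bok, 10 of the 22180 genes that had a probeset with exactly 1 gene symbol on the array. They were chosen by symbol, with earlier results of these data known. Where a gene had several probesets, the one with the highest mean over the 7 arrays stood for it. The arrays were 3 of control G1E cells (Lockd WT) and 4 of G1E cells with a Lockd deletion made with CRISPR/Cas9, and no drug or other genotype was listed for either group. G1E is a mouse erythroid line that lacks the transcription factor GATA1 and grows as immature precursors, so both groups share that background. The samples are called clones in the design text, but how many clones there were, and whether the control cells had also passed through editing, is not stated in the labels.

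Proteins of the BCL2 family decide whether the outer mitochondrial membrane is opened and cytochrome c is released, which starts the caspase cascade. Pro-survival members hold the effector proteins in check, the effectors form the pores, and the BH3-only proteins carry stress signals by binding either of the others. In red cell precursors, erythropoietin acting through STAT5 and, later, GATA1 are known for raising Bcl2l1, which keeps maturing cells alive. The comparison of the 3 roles with and without Lockd addresses whether the transcripts of this machinery differed when the locus was deleted. Only RNA was measured, so protein level, cleavage, phosphorylation and cell death were not seen.

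None of the 10 genes passed the test. Group means of the 3 pro-survival genes differed by 0.0010 to 0.03 on the log2 scale. The largest differences were those of the BH3-only genes Bmf, at 0.30, and Bik, at 0.24, both with higher means in deletion cells. After Benjamini-Hochberg adjustment over 23521 probesets in limma, 0 of the 10 had an adjusted p under 0.05, where 0.0085% of all tested probesets did, and the adjusted p was 0.999 for each. At an unadjusted p under 0.05 there was 1 of the 10, Bmf, where 4.64% of the tested probesets had such a value and 2.27% had one with a higher mean in deletion cells. The groups overlapped for all 10 genes, where they did not overlap for 5.15% of the probesets. The median difference was 0.03 over the 10 genes and 0.01 over all genes. Of the 10 differences 9 were above 0, as were 52.2% of those of all genes. Those of Bcl2, Bcl2l1, Mcl1, Bak1 and Bcl2l11 fell below 0 when certain arrays were left out. Of the 12 other BCL2 family genes measured, 4 had higher and 8 lower means in deletion cells. The 10 genes were chosen with earlier results of these data known, so their shares cannot be read as an excess. The 95% intervals of the 10 genes had their lowest bound at -0.25, for Bcl2l11, and their highest at 0.56, for Bmf. The narrowest, that of Mcl1, ran from -0.15 to 0.15, and all but that of Bmf included 0. For each gene, differences inside its own interval cannot be resolved with 3 against 4 arrays.

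Lockd itself and its neighbour Cdkn1b, which encodes the cell cycle inhibitor p27, were the probesets that passed, and both were lower in deletion cells. Lockd differed by -3.02 (SE 0.23, limma adjusted p = 0.0162) and Cdkn1b by -1.14 (SE 0.10, limma adjusted p = 0.0251), which is the check of the labels. These calls had little margin: leaving out any control array, deletion replicate 1 or deletion replicate 4 left 0 passing probesets. Markers of the labelled cell type and of others can only be described, because a level cannot be set against that of another probeset. Counts of probesets above the median gene level are therefore a rough description of brightness, and cell identity was not tested with them. Probesets above the median gene level numbered 11 of 13 for erythroid, 5 of 6 for progenitor, 2 of 4 for megakaryocyte, 2 of 7 for mast cell, 2 of 6 for stromal and endothelial, 0 of 7 for myeloid and 0 of 6 for lymphoid markers. The erythroid list averaged 9.34 to 9.54 on control and 9.25 to 9.59 on deletion arrays. Single genes of that list varied more, with Slc4a1 from 7.40 to 8.84 and Epb42 from 7.16 to 8.37. Both were lowest on deletion replicate 2 and highest on deletion replicate 3. The mast cell markers Cpa3 and Ms4a2 varied widely, from 9.53 to 11.97 and from 7.55 to 10.05, with control replicate 2 lowest for both. None of the markers passed. The groups did not overlap for 1 of 13 erythroid, 1 of 4 megakaryocyte and 1 of 7 myeloid markers, and for 0 in each other marker list. Over all tested probesets 5.15% did not overlap. The 3 markers were Tfrc at -0.17 (SE 0.06), Gp9 at -0.33 (SE 0.11) and Mpo at 0.24 (SE 0.08), of which Mpo was dimmer than the median gene. The part of these markers in the results was not tested. In bulk RNA, fewer cells of a type and less RNA per cell cannot be told apart. Control replicate 2 stood apart from the other 6 arrays on the first principal component, so results that rest on it are also given without it.

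Values of all 10 genes on every array are drawn by role, to show how the spread within a group compares with the gap between group means.

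**Figure D1:**
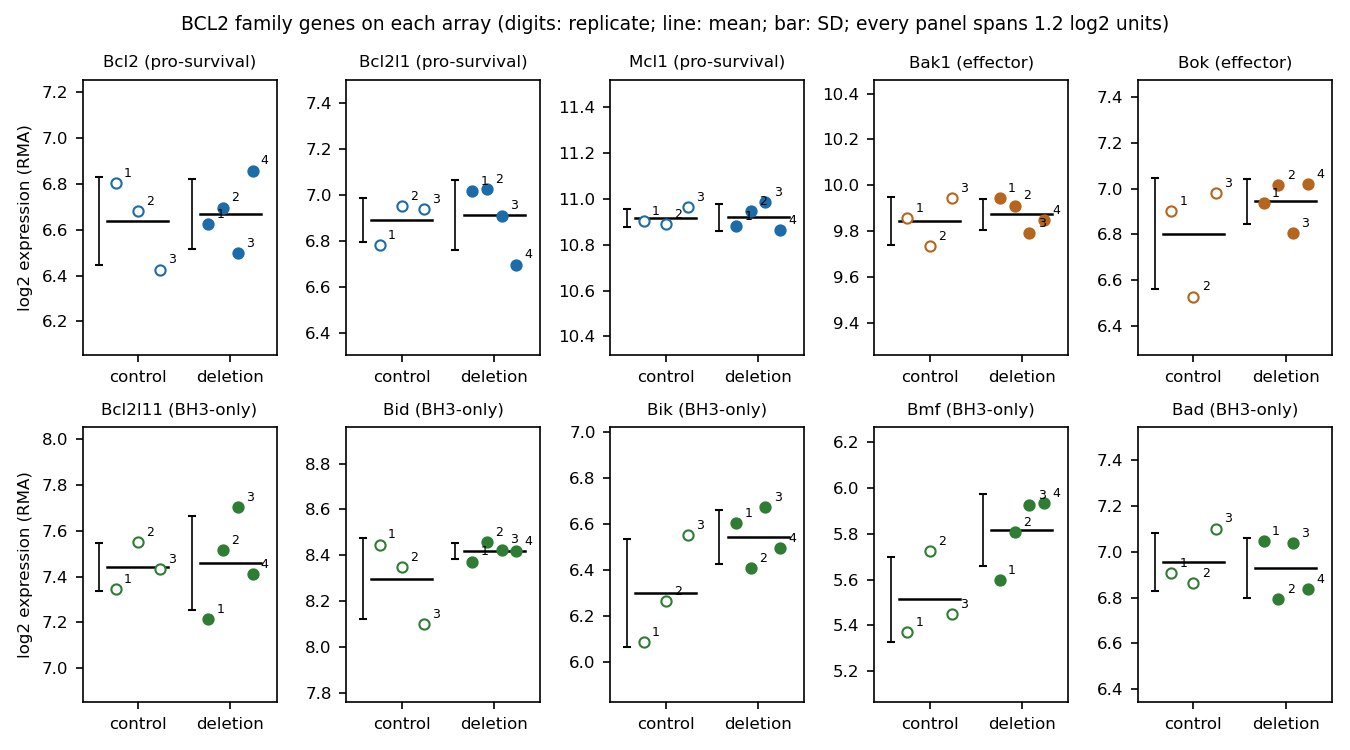
Log2 RMA expression (vertical axis) of the 10 BCL2 family genes in control and deletion cells; each point is an array, digits give its replicate number, horizontal lines are group means and bars are SD (n = 3 and 4). Every panel spans the same range of log2 units, and in each panel the points of the groups overlap, with the widest gap between means at Bmf and the narrowest at Mcl1.

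Mcl1 encodes a short-lived pro-survival protein that blood progenitors depend on, and it was the steadiest of the 10 genes. Control replicates 1 to 3 gave log2 values of 10.90, 10.89 and 10.96, and deletion replicates 1 to 4 gave 10.88, 10.95, 10.99 and 10.86. All 7 values lay within 0.12 of each other, and the deletion arrays fell on both sides of the control range. Control cells averaged 10.92 ± 0.04 (SD, n = 3) and deletion cells 10.92 ± 0.06 (SD, n = 4). The 95% interval of the difference ran from -0.15 to 0.15, or from 9.57% lower to 10.7% higher, the narrowest of the 10. Its residual SD was smaller than those of all but 7.11% of genes. The dimmer of its 2 probesets differed by 0.07 (SE 0.10).

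Bcl2l1 encodes BCL-XL, the pro-survival protein most closely tied to red cell maturation. It read 6.78, 6.95 and 6.94 on the control arrays and 7.02, 7.03, 6.91 and 6.70 on the deletion arrays. Deletion replicates 1 and 2 lay above all controls and deletion replicate 4 below them, so the deletion arrays bracketed the control group. Control cells averaged 6.89 ± 0.10 (SD, n = 3) and deletion cells 6.91 ± 0.15 (SD, n = 4), a gap of 0.02 (SE 0.10, 95% interval -0.20 to 0.24). Its single probeset summarises the gene, and the long and short splice forms of BCL-X cannot be told apart with it.

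Bcl2, the founding pro-survival gene of the family, read 6.80, 6.68 and 6.43 in control cells. The deletion arrays read 6.62, 6.70, 6.50 and 6.86, which again spread over the control range. The means were 6.64 ± 0.19 (SD, n = 3) and 6.67 ± 0.15 (SD, n = 4), and the difference was 0.03 (SE 0.11, 95% interval -0.23 to 0.29). A dimmer probeset of the gene differed by -0.06 (SE 0.10), so the 2 probesets disagreed in direction and neither passed in limma (adjusted p = 0.999 for each).

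The effector genes were Bak1 and Bok. Bak1 encodes BAK, which forms pores in the mitochondrial membrane, and read 9.86, 9.73 and 9.94 in control and 9.94, 9.91, 9.79 and 9.85 in deletion cells. The means of 9.84 ± 0.10 (SD, n = 3) and 9.87 ± 0.07 (SD, n = 4) differed by 0.03 (SE 0.08, 95% interval -0.14 to 0.20), and by -0.03 without control replicate 2, the lowest array. Bax, the other main effector gene, is not analysed here.

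Bok encodes a BAK-like effector whose protein is known for its rapid turnover. It read 6.90, 6.53 and 6.98 in control and 6.94, 7.01, 6.81 and 7.02 in deletion cells. Control replicate 2 was the lowest array, and the other 6 lay between 6.81 and 7.02. The means were 6.80 ± 0.24 (SD, n = 3) and 6.94 ± 0.10 (SD, n = 4), and the difference of 0.14 (SE 0.12, 95% interval -0.12 to 0.40) became 0.0028 without control replicate 2.

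Among the BH3-only genes, Bmf had the largest difference. It encodes a sensor that is held on the cytoskeleton by dynein light chains until released, and that binds the pro-survival proteins. Bmf read 5.37, 5.72 and 5.45 in control and 5.60, 5.81, 5.92 and 5.93 in deletion replicates 1 to 4. Deletion replicates 2, 3 and 4 lay above all control arrays, while deletion replicate 1 lay below control replicate 2. Control cells averaged 5.51 ± 0.19 (SD, n = 3) and deletion cells 5.82 ± 0.16 (SD, n = 4), a gap of 0.30 (SE 0.11, 95% interval 0.04 to 0.56), or 23.2% with an interval of 2.85% to 47.7%. The unadjusted limma p was 0.0284, which 2.49% of the tested probesets undercut, and the adjusted p was 0.999. An exact two-sided permutation test over the 35 splits of the arrays gave p = 0.114, where the smallest it can give is 0.0286.

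The Bmf difference stayed above 0 whichever array was left out, from 0.23 without control replicate 1 to 0.41 without control replicate 2. The unadjusted limma p was then under 0.05 in 2 of the 7 cases, without control replicate 2 (0.00631) and without deletion replicate 1 (0.0089), and ran up to 0.11. Of the 10 genes Bmf alone was dimmer than the median gene, and RMA values carry no detection call.

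Bik encodes a BH3-only protein found mainly at the endoplasmic reticulum. It read 6.09, 6.26 and 6.55 on the control arrays and 6.60, 6.41, 6.67 and 6.49 on the deletion arrays. All 4 deletion arrays lay above the control mean and 2 of them above every control array, with control replicate 3 inside the deletion range. Control cells averaged 6.30 ± 0.23 (SD, n = 3) and deletion cells 6.54 ± 0.12 (SD, n = 4), a gap of 0.24 (SE 0.12, 95% interval -0.02 to 0.51) with an unadjusted limma p of 0.068. It was 0.14 without control replicate 1 and 0.37 without control replicate 3.

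Bid encodes the protein that carries a death receptor signal to mitochondria once caspase-8 has cut it. Control cells read 8.45, 8.35 and 8.10, and deletion cells 8.37, 8.46, 8.43 and 8.42. The deletion arrays lay close together, with an SD of 0.04 (n = 4) against 0.18 (n = 3) in control cells, and control replicate 3 was the lowest array. The difference was 0.12 (SE 0.09, 95% interval -0.08 to 0.32), and 0.02 without control replicate 3. Bid lies on chromosome 6, as Lockd does.

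Bcl2l11 encodes BIM, a BH3-only protein that binds all the main pro-survival proteins and is a known target of FoxO factors. It read 7.34, 7.55 and 7.43 in control and 7.21, 7.51, 7.70 and 7.41 in deletion cells. The deletion group held both the highest and the lowest array, and the difference was 0.02 (SE 0.12, 95% interval -0.25 to 0.28).

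Bad encodes a BH3-only protein that survival kinases switch off by phosphorylation, and its difference was the only one below 0. It read 6.91, 6.86 and 7.10 in control cells. The deletion arrays read 7.05, 6.79, 7.04 and 6.84, a difference of -0.03 (SE 0.10, 95% interval -0.25 to 0.19).

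The differences and their intervals are drawn together by role to show how few of them exclude 0.

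**Figure D2:**
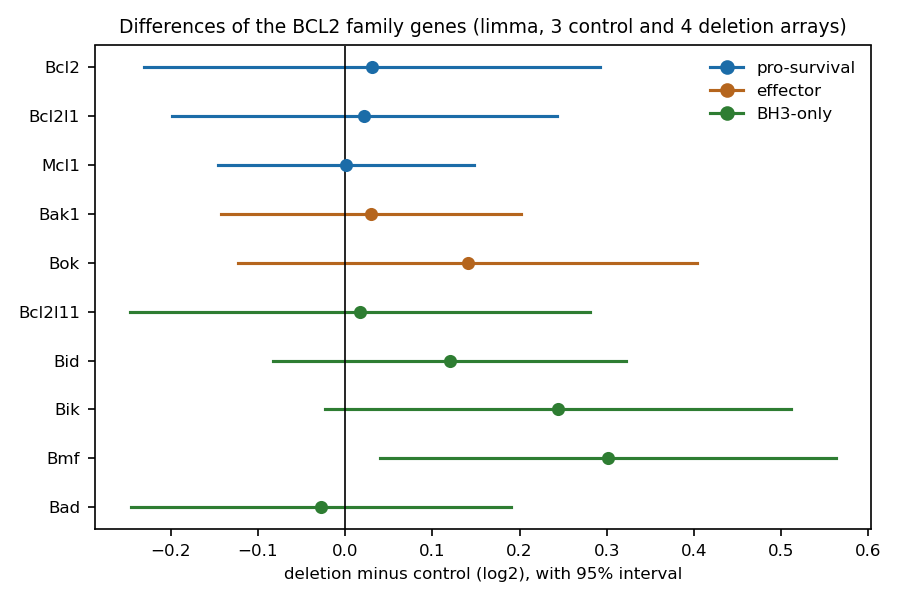
Difference in log2 expression, deletion minus control (horizontal axis), for each of the 10 genes with its 95% interval from limma (3 control and 4 deletion arrays), coloured by role. Bmf, at 0.30, is the only gene whose interval, from 0.04 to 0.56, excludes 0 before adjustment.

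Taking each gene relative to its control mean and averaging within a role gave a value per array, described here with no test. The pro-survival genes averaged 0.02 ± 0.04 (SD, n = 4) on the deletion arrays, the effectors 0.08 ± 0.07 and the BH3-only genes 0.13 ± 0.08. The effector average rested on control replicate 2 and was -0.01 without it. The BH3-only average combined Bmf at 0.30, Bik at 0.24 and Bid at 0.12 with Bcl2l11 at 0.02 and Bad at -0.03. Bbc3, Pmaip1 and Hrk, BH3-only genes that are not in that average, had lower means in deletion cells, at -0.11, -0.03 and -0.01. The average therefore describes the chosen genes and not the BH3-only class. The control arrays had an SD of 0.03 for the pro-survival genes, 0.17 for the effectors and 0.06 for the BH3-only genes (n = 3). The pro-survival average minus the BH3-only average was 0.09, -0.02 and -0.06 on control replicates 1 to 3. On deletion replicates 1 to 4 it was -0.04, -0.02, -0.27 and -0.13. Deletion replicates 3 and 4 lay below all control arrays, and deletion replicates 1 and 2 lay among them. The BH3-only average was highest, at 0.25, on deletion replicate 3, where Bcl2l11 and Bik each had their highest value.

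How far each difference depended on single arrays is drawn for all 10 genes.

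**Figure D3:**
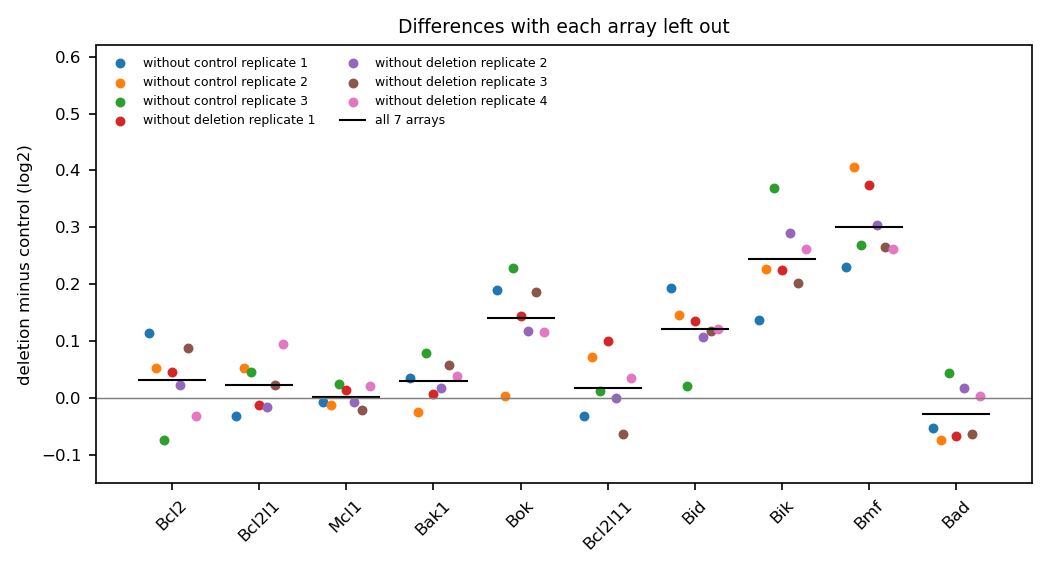
Deletion minus control in log2 expression (vertical axis) for each gene with all 7 arrays (black line) and with each array left out in turn (coloured points). Bmf, Bik, Bid and Bok stay above 0 throughout, with Bok at 0.0028 without control replicate 2, and the points of the other 6 genes fall on both sides of 0.

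The promoters of the family were searched for short letter patterns of regulators that the array also measured, in RefSeq windows of GRCm38.p6 that reach from 250 bases before to 50 bases after a transcription start. Of the 10 genes 9 had such windows, 15 in all. The patterns were AGATAA and TGATAA for GATA factors, TGTTTAC for FoxO factors and TTCNNNGAA for STAT factors, on both strands, and they do not overlap each other in the stretches shown. A pair of stretches is printed because these were the only matches of the 4 patterns among the 15 windows, with the pattern in capitals. The Bcl2l1 stretch lies at chr2:152828509-152828546 on the minus strand, with the pattern starting 41 bases before that start. The Bcl2l11 stretch lies at chr2:128125795-128125833 on the plus strand, with the pattern on the opposite strand, starting 227 bases before the start.
Bcl2l1: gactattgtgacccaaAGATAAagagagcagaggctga
Bcl2l11: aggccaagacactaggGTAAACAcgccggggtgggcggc
AGATAA was present in 11.2% of all 32851 promoter windows, TGATAA in 9.05%, TGTTTAC in 3.65% and TTCNNNGAA in 8.30%. The 4 patterns were kept after others had been looked at. A match is a description of letters, and neither gene's level differed past the test.

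Of the other BCL2 family genes listed, 12 of 17 were measured and 0 passed, with 4 higher and 8 lower means in deletion cells and a median difference of -0.02. Bnip3, a mitophagy receptor with a BH3-like region and a hypoxia-induced gene, had the smallest p. It read 9.90, 9.86 and 9.57 in control and 9.32, 9.22, 9.16 and 9.27 in deletion cells, so every deletion array lay below every control array. The difference was -0.54 (SE 0.09), for which limma gave an adjusted p = 0.855 (0.000326 before adjustment). The p53 target Bbc3, which encodes the BH3-only protein PUMA, differed by -0.11 (SE 0.12). Its partner in that response, Pmaip1, which encodes NOXA, was dimmer than the median gene and differed by -0.03 (SE 0.07).

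The remaining family genes measured, which are not all pro-survival, gave no common direction. Bcl2l2, which encodes BCL-W, differed by 0.02 (SE 0.07), Bcl2a1a by 0.29 (SE 0.20) and Bcl2a1c by -0.17 (SE 0.16), and copies of the Bcl2a1 gene are near-identical, so their probesets may share signal. Bcl2l10 differed by 0.04 and Bcl2l13, a mitochondrial protein gene, by -0.06. Bcl2l14, a neighbour of Lockd on its chromosome, differed by 0.18 (SE 0.12), Bcl2l15 by -0.14 (SE 0.10), the BH3-only gene Hrk by -0.01 and the autophagy gene Becn1 by -0.0082. Bcl2a1a, Bcl2a1c, Bcl2l10, Bcl2l14, Bcl2l15 and Hrk were dimmer than the median gene, with group means from 3.46 to 4.87. Whether these genes were expressed cannot be told, because RMA values carry no detection call.

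Downstream of the mitochondria, the 12 measured apoptosome and caspase genes had 6 higher and 6 lower means, a median of -0.01 and 0 that passed or had an unadjusted limma p under 0.05. The smallest p values were those of Htra2, a mitochondrial protease released with cytochrome c, at 0.12 (SE 0.06), and the executioner caspase gene Casp6, at -0.14 (SE 0.07). Htra2 read 11.27 to 11.35 on control and 11.38 to 11.48 on deletion arrays, without overlap. Aifm1, which encodes apoptosis-inducing factor, did not overlap in the other direction, at 9.64 to 9.67 and 9.50 to 9.60. These were 2 of the 12 genes, where 5.15% of all tested probesets did not overlap. Their unadjusted limma p values were 0.0773 for Htra2 and 0.153 for Aifm1. Apaf1, the scaffold of the apoptosome, differed by -0.08 (SE 0.07), Casp9 by 0.03 and Cycs, the cytochrome c gene, by 0.03. The 6 inhibitor of apoptosis genes had a median of -0.05 and 0 with an unadjusted limma p under 0.05, with Birc3 at -0.17 (SE 0.10), Birc6 at -0.08 (SE 0.08) and Xiap at -0.04 (SE 0.06).

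In the death receptor pathway 0 of 10 genes passed, and 5 means were higher and 5 lower. Tnfrsf10b, the receptor for TRAIL, differed by -0.19 (SE 0.08, unadjusted limma p 0.0424), and Fasl, which was dimmer than the median gene, by 0.15 (SE 0.08). Casp8, which cuts BID, differed by 0.07 (SE 0.08).

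Genes for proteins that bind or turn over BCL2 family members had 0 of 19 past the threshold and a median of -0.01. Trim17, a ubiquitin ligase gene that acts on MCL1, differed by 0.16 (SE 0.07, unadjusted limma p 0.0492). The dynein light chain genes Dynll1 and Dynll2, whose proteins tether BMF and BIM, differed by -0.09 (SE 0.08) and -0.03 (SE 0.08). The MCL1 ubiquitin ligase gene Huwe1 and the deubiquitinase gene Usp9x differed by -0.03 and -0.02.

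Survival signalling and transcription factor genes had 0 of 20 past the threshold, 4 of 20 higher means, where 52.2% of all genes had one, and a median of -0.04. The unadjusted limma p was under 0.05 for 3 of them, Jun, Stat3 and Foxo3, or 15% of the list against 4.64% of all tested probesets, and all 3 had lower means. This list was chosen with earlier results of these data known, so its shares cannot be read as an excess. Jun, an AP-1 gene known to raise Bcl2l11 in neurons, read 7.03, 6.61 and 7.43 in control and 6.15, 6.08, 6.44 and 5.83 in deletion cells, without overlap, and differed by -0.90 (SE 0.20, limma adjusted p = 0.969). Foxo3, a FoxO factor that drives Bcl2l11 when growth factors are withdrawn, read 8.02, 8.15 and 7.95 in control and 7.72, 7.88, 7.89 and 7.91 in deletion cells. Its groups did not overlap either, and it differed by -0.19 (SE 0.08).

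STAT5 proteins carry the erythropoietin signal from the receptor to Bcl2l1. Stat5a read 10.03, 10.18 and 9.82 in control and 9.86, 9.92, 9.41 and 9.17 in deletion cells, and Stat5a differed by -0.42 (SE 0.19). Stat5b read 10.04, 10.20 and 10.05 in control and 10.01, 10.04, 9.86 and 9.90 in deletion cells, narrowly without overlap, and differed by -0.15 (SE 0.08). Stat3 also differed by -0.42 (SE 0.15), with deletion replicates 3 and 4 lowest for all 3 STAT genes. Epor, the erythropoietin receptor gene, differed by 0.10 (SE 0.09), Jak2 by -0.01, Kit by -0.07 (SE 0.07) and Gata2 by -0.04 (SE 0.07). Over all 79 genes of these other lists, 6 had an unadjusted limma p under 0.05, or 7.59% against 4.64% of all tested probesets, and 7 had groups that did not overlap, which 5.15% of all tested probesets had. All of these lists were chosen with earlier results of the data known, so neither share can be read as an excess.

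The spread of these lists around 0 is drawn beside that of the BCL2 family roles.

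**Figure D4:**
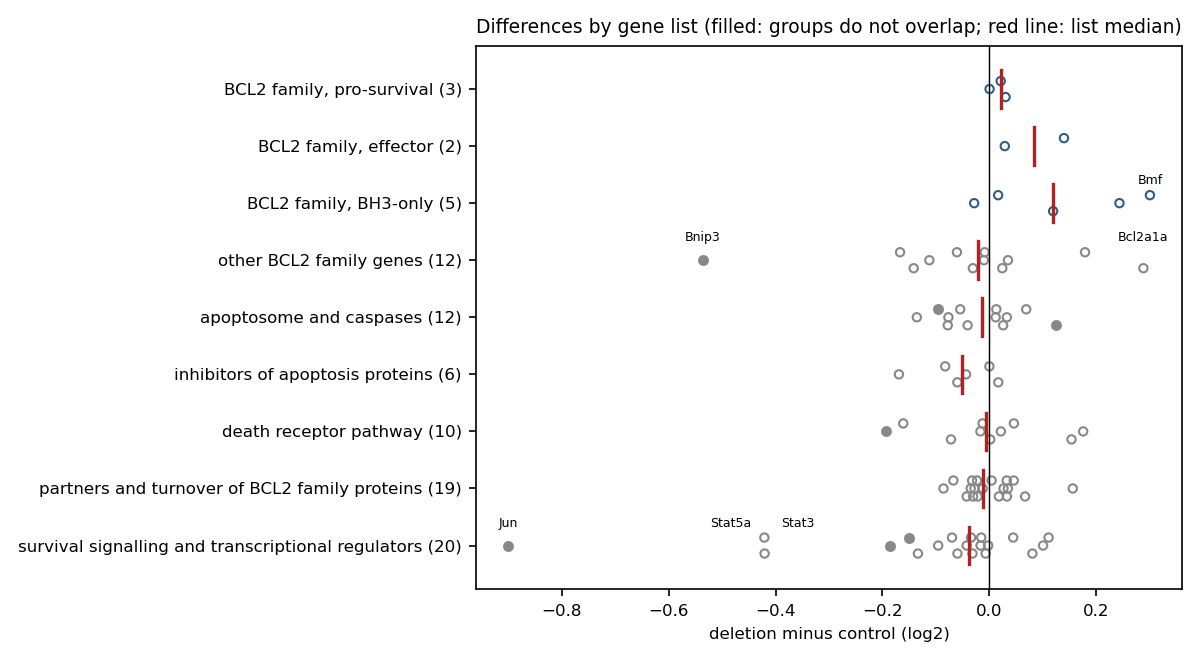
Deletion minus control in log2 expression (horizontal axis) for the 10 BCL2 family genes by role (blue) and the 79 other genes by list (grey), with the number measured in brackets; each point is a gene, filled where the groups do not overlap, and red lines are list medians. The list medians run from -0.05 to 0.12, and the points farthest from 0 are Jun and Bnip3.

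The genes most like Bmf over the 7 arrays were sought by the root-mean-square distance between profiles, each centred on its own mean, leaving out predicted genes. The nearest were Cyp2c50, a cytochrome P450 gene, at a distance of 0.046 log2 units, Armcx6 at 0.056 and Zfp189, a zinc finger gene, at 0.057. Cyp2c50 was dim, with means of 2.97 in control and 3.23 in deletion cells, where the array medians were 5.42 to 5.46. Armcx6 read 6.37, 6.67 and 6.56 in control and 6.66, 6.81, 6.87 and 6.96 in deletion cells, with control replicate 2 again the highest control array and deletion replicate 1 the lowest deletion array. The differences of the 3 genes were 0.26 (SE 0.12), 0.29 (SE 0.10) and 0.23 (SE 0.11), and none passed in limma (adjusted p = 0.999 for each). They were selected for this likeness from all genes, so their differences add no support to that of Bmf.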

How the data were processed

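Total RNA of 7 samples was hybridised to Mouse Gene 2.0 ST arrays, 1 array a sample. The authors deposited log2 values from RMA, run in Affymetrix Expression Console according to the submitters' processing notes; RMA corrects background, equalises the array distributions and summarises probesets. Software version, library files and genome build: not given in the sources used here. RMA gives no detection call, levels of different probesets are not comparable, and the number of arrays limits the precision.

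Groups and replicate numbers came from the titles; the descriptions number the deletion samples differently, from 2 to 5. The labels do not say whether replicates were separate cultures, so p-values cover only the spread between the arrays, which may be technical in origin. Of the 41345 probesets, the platform annotation gave 1 symbol for 23521, which were tested, several for 1814 and none for 16010. Differences are deletion minus control, fitted in R 4.3.3 with limma 3.58.1 (lmFit and eBayes, two-sided, both groups in 1 fit, no covariate), adjusted by Benjamini-Hochberg over the tested probesets at a threshold of 0.05. Single genes were also tested by an exact permutation test over 35 splits, by the size of the difference. The fit was tested on simulated data. Same-numbered arrays of the groups deviated with correlations of 0.025, 0.061 and -0.098 by the titles, and -0.171 and -0.0994 for the 2 pairs that the descriptions' numbers share, so the numbers were not taken as pairs. The members and gene lists were chosen with earlier results of these data known. All members were named, and of each other list the genes with the smallest p and, for the BCL2 family, all measured; further genes were named as examples after their values were seen. Alternatives in normalization, filter, variance model, array weights, probeset choice, replicate block and left-out arrays were run.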

Additional observations from a re-analysis of the deposited data

How the results depend on the processing

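No member passed in limma under any of the alternatives run, where the smallest adjusted p was 0.58, for Bik without control replicate 3, and 0 members passed in each. Of the 161 member values under the alternatives, 139 kept their direction, and Bmf, Bik, Bid and Bok kept theirs throughout. Bmf could not be fitted with the filter on means above the median level, which removes it. The values that turned direction were at most 0.0746 in size. The largest turned value exceeded in size the value it turned from for Bcl2, Bcl2l1, Mcl1, Bcl2l11 and Bad, and not for Bak1. With array median centring Mcl1 was -0.0034, with repeated quantile normalization -0.0044 and with array weights -0.0018. With the mean of its probesets Bcl2 was -0.015. With the replicate number as a block, which also leaves out deletion replicate 4, Bad was 0.0027 and Bcl2 -0.032, the median over the 10 genes was 0.066 and 0 probesets passed. The same 6 arrays without the block gave the same 4 values. Each block held an array of each group, so it could not change a difference, and equal differences say nothing about the replicate number. What a block can change is the p-value: the unadjusted limma p of Bmf was 0.0497 with it and 0.0711 without. Testing all 41345 probesets of the table also left 0. With each array left out in turn, Bad ran from -0.075 to 0.044, Bak1 from -0.025 to 0.079, Bcl2 from -0.075 to 0.115, Bcl2l1 from -0.033 to 0.094, Bcl2l11 from -0.064 to 0.099 and Mcl1 from -0.021 to 0.023. The median over the 10 genes then ran from 0.0196 to 0.0748 and the count of passing probesets from 0 to 2. The cause of these shifts was not tested.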
